A study of Peromyscus maniculatus and Peromyscus polionotus and Peromyscus maniculatus x Peromyscus polionotus with 18 samples.

Results

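The brain of the deer mouse *Peromyscus maniculatus*, a species that digs short and simple burrows, was profiled after a burrowing trial and after a control trial. Whole-brain RNA of 3 animals killed straight after the burrowing trial was set against that of 3 animals killed after the control trial, over every gene with a mean of at least 1 TPM in these 6 libraries. TPM is a level of transcripts scaled by transcript length and by the total of the library. This kept 14247 genes of the 20732 rows of the table. The gene just inside the minimum, Lypd6b, had a mean of 1.001 TPM and the row just outside it 0.9999 TPM.

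All 6 animals were males, tested at about 50 to 80 days of age, housed with males of their own genotype, taken through 2 earlier trials in sand-filled enclosures and then assigned to a trial at random. Both groups, the control group included, therefore had earlier experience of sand-filled enclosures. The sources used here do not say what the control trial consisted of, how long either trial ran or how much each animal dug. The same trials were run with *P. polionotus*, the oldfield mouse, which digs long burrows with an escape tunnel, and with F1 hybrids of both species, 3 animals a trial. Each library was taken as 1 whole brain, so a gene that changed in a small nucleus was measured together with every other region, and fewer cells of a type and less RNA per cell cannot be told apart.

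Digging is a motor behaviour that engages motor cortex, basal ganglia and cerebellum. Neurons that have been active switch on immediate early genes such as Fos, Egr1 and Arc for a short time, and stress or exertion raises corticosterone, which switches on genes such as Fkbp5, Sgk1 and Tsc22d3 through the glucocorticoid receptor. Prostaglandin E2 is made from arachidonic acid by a cyclooxygenase (Ptgs1 or Ptgs2) followed by a terminal synthase, of which the membrane-bound, inducible form is encoded by Ptges. It acts through the receptors Ptger1 to Ptger4 and is best known in the brain for fever and sickness responses.

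The 6 libraries carried the RNA of whole brain: Snap25, a protein of neuronal synapses, lay between 490.5 and 568.5 TPM, the myelin gene Mbp between 294.6 and 368.9, the astrocyte gene Gfap between 232.9 and 362.5, and Ttr, made by the choroid plexus, between 1112 and 1433. The muscle actin Acta1 was at 18.47 to 22.89 TPM and Alas2, a marker of red cells, at 2.634 to 3.439 TPM. Between 14104 and 14392 genes a library reached 1 TPM. Spearman correlations across genes, which are not independent replicates, were 0.9881 to 0.9931 within a group and 0.9874 to 0.9952 between groups. Control replicate 3 stood apart on the first principal component (24.17, against -10.64 to 1.25 in the other libraries) and burrowing replicate 2 on the second (-22.77). Where leaving out a library ended a call or moved a list median by over 1.5 times, a value without it or the range over the alternative fits stands beside the result. TPM keep no depth, and the error of a value rests on the spread between animals alone.

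Of the 14247 genes, 1 passed an adjusted p of 0.05 (0.00702%), and it was higher after burrowing: Ptges, the inducible prostaglandin E synthase. Ptges was at 2.55, 2.61 and 1.23 TPM in the control animals and at 10.8, 10.3 and 10.2 TPM in the burrowing animals. Every burrowing animal lay far above every control animal, and the burrowing animals differed little among themselves. The mean rose 3.75-fold on the scale of TPM + 1, a log2 fold change of 1.91 (SE 0.169, 95% interval 1.53 to 2.28, limma adjusted p = 0.00349). The 12 parental libraries share 1 estimate of spread in this fit. With the spread taken from the 6 *P. maniculatus* libraries alone, the same difference had an adjusted p of 0.394, and with a pseudocount of 0.1 in place of 1 the log2 fold change was 2.31 with an adjusted p of 0.0844. With the replicate number as a block, the limma adjusted p was 0.0413. The exact permutation test over 3 against 3 animals cannot go below p = 0.1.

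In *P. polionotus*, Ptges was near the bottom of the measured range after either trial, at 0.331 to 0.648 TPM in control and 0.592 to 0.945 TPM in burrowing animals (log2 fold change 0.20, SE 0.169). Its groups overlapped, and its highest animal lay below the lowest *P. maniculatus* control animal. The response in *P. polionotus* minus that in *P. maniculatus* was -1.70 (SE 0.239), with an adjusted p of 0.288 in limma, so the difference between the species did not pass over all genes. It passed without maniculatus control replicate 3 and with a pseudocount of 5. The SD of log2(TPM + 1) was 0.393 and 0.036 in the control and burrowing *P. maniculatus* animals and 0.173 and 0.145 in those of *P. polionotus*.

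**Figure D1:**
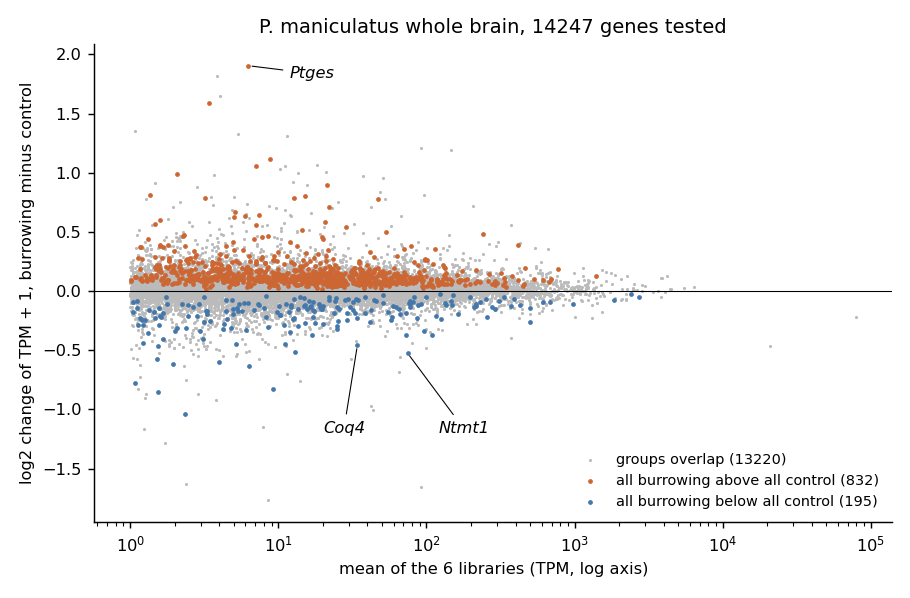
Mean level of each of the 14247 genes in the 6 libraries (TPM, log axis) against its log2 change, burrowing minus control; orange and blue points are genes whose groups do not overlap. Ptges is the highest point, at a log2 change of 1.91, and most other genes lie close to 0.

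At an unadjusted p under 0.05, limma counted 210 genes higher (1.47%) and 88 lower (0.618%) after burrowing, together fewer than the 712 that this threshold lets through by chance. Groups did not overlap for 832 genes that were higher (5.84%) and 195 that were lower (1.37%). That imbalance depended on the scaling. Of the genes without overlap, 81% were higher as deposited, 43.5% when libraries were scaled to the same median and 48.1% after quantile normalization. The median change of all genes was 0.0247 as deposited and -0.0039 with median scaling. Few genes moved far: 133 had a log2 change of at least 0.5 in either direction and 23 of at least 1. For 13886 genes (97.5%) the 95% interval lay between -1 and 1, and for 12325 (86.5%) between -0.5 and 0.5.

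The remaining genes with the smallest p-values are described by their values, because none passed the adjustment. The 12 leading genes in each direction were chosen for a small p among genes with a symbol and groups that do not overlap. The lack of overlap is therefore part of the choice. Among those that were higher, Nuak2, an AMPK-related kinase, was at 2.33, 2.19 and 2.23 TPM in control and 2.90, 3.43 and 3.03 TPM in burrowing animals (0.34, 95% interval 0.17 to 0.51). Nuak2 was also higher after burrowing in *P. polionotus*, at 1.64 to 2.04 TPM in control and 2.76 to 2.95 TPM in burrowing animals (0.48, SE 0.0773). The trial separated the animals of both species for this gene, at low levels throughout. In the hybrids its groups overlapped, with 3.68, 4.92 and 5.90 CPM (counts scaled to a common total) in control and 4.95, 2.90 and 4.31 in burrowing animals.

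Pcdhb2, a clustered protocadherin of neuronal contacts, was at 3.82, 4.01 and 5.59 TPM in control and 6.04, 8.15 and 8.20 TPM in burrowing animals (0.63, 95% interval 0.31 to 0.95). Scly, which releases selenium from selenocysteine, was at 8.78, 7.74 and 8.26 against 10.5, 11.1 and 9.52 TPM (0.29, 95% interval 0.14 to 0.45). In the hybrids Scly went the other way without overlap, from 18.7, 21.5 and 19.0 CPM in control to 14.5, 8.80 and 14.5 CPM in burrowing animals. The share of all hybrid genes without overlap was not counted. Mybpc3, known as a myosin-binding protein of heart muscle, was at 2.30, 2.05 and 1.73 TPM in control and 5.13, 2.42 and 5.70 TPM in burrowing animals (0.78, 95% interval 0.32 to 1.25). Burrowing replicate 2 lay next to the control animals for this gene; without that library the change was 1.09 with a limma adjusted p of 0.0165, and with median scaling the groups overlapped. *P. polionotus* had 4.53 to 5.88 TPM of Mybpc3 after either trial. The other higher genes were Fibcd1 and Usp20, described below, the transcription factor Klf8 (0.25), the kinase Lmtk2 (0.26), the testis kinase Tssk3 (0.46), the homocysteine methyltransferase Bhmt2 (0.38) and Smim17 (0.25).

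Among the genes that were lower after burrowing, 2 had the smallest p-values. Coq4, needed to build coenzyme Q for the respiratory chain, was at 41.8, 40.3 and 37.0 TPM in control and 27.5, 28.4 and 30.1 TPM in burrowing animals (-0.46, SE 0.0637, limma adjusted p = 0.0926). Ntmt1, which methylates the amino terminus of proteins, was at 94.0, 86.5 and 83.9 TPM in control and 62.0, 59.8 and 61.0 TPM in burrowing animals (-0.52, SE 0.0843, limma adjusted p = 0.251). For both genes the gap between the groups was wider than the range within either. In *P. polionotus* Coq4 was at 43.6 to 45.7 TPM in control and 41.0 to 45.7 TPM in burrowing animals, and Ntmt1 at 36.2 to 44.9 and 38.8 to 45.6 TPM. Coq4 passed when the libraries were rescaled without Mtrnr2l6, a humanin-like transcript that held 6.51% to 9.75% of TPM (adjusted p = 0.0464). In the hybrids Ntmt1 was at 35.7, 26.9 and 28.1 CPM in control and 38.5, 14.6 and 21.7 CPM in burrowing animals, which overlap.

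The next lower genes had smaller differences or lower levels. Hddc3, an HD-domain hydrolase and the most abundant of them, was at 255, 279 and 288 TPM in control and 236, 239 and 232 TPM in burrowing animals (-0.22, 95% interval -0.35 to -0.09). Trap1, the mitochondrial chaperone of the HSP90 family, was at 27.2, 33.0 and 34.8 against 26.0, 26.7 and 26.5 TPM (-0.25, 95% interval -0.43 to -0.06), so that control replicate 1 lay close to the burrowing animals. Hamp, which encodes the iron hormone hepcidin, was at 13.9, 13.6 and 13.6 against 10.7, 11.3 and 12.9 TPM (-0.22, 95% interval -0.39 to -0.05). Snx22, a sorting nexin, changed by -0.37, Asap3, a GTPase-activating protein for Arf, by -0.19, and the LIM protein Ajuba by -0.24. Cd164l2 (-0.60), Mroh6 (-0.35), Spata4 (-0.41) and Theg (-0.29) were at or below 6 TPM in every library.

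**Figure D2:**
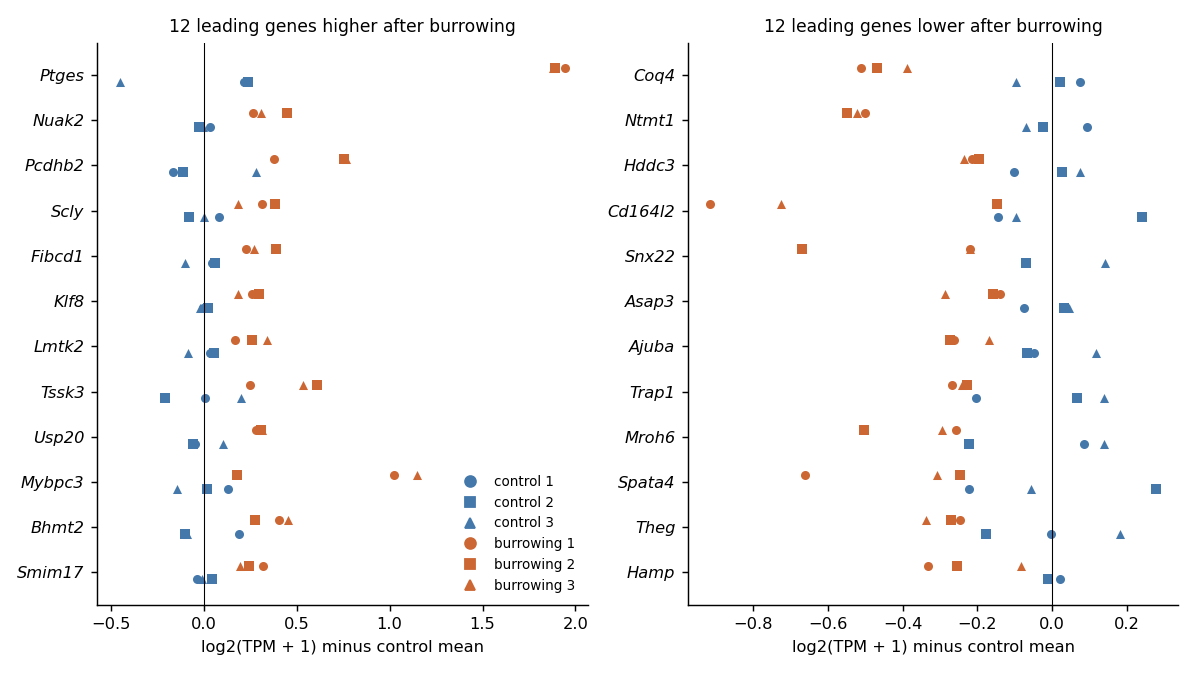
Each point is 1 library: log2(TPM + 1) minus the mean of the 3 control libraries, with marker shape for the replicate number. Shown are the 12 genes of smallest p in each direction among those with a symbol and groups that do not overlap. Ptges stands alone at a distance near 1.91; the other genes lie closer to the control mean, with 2 of the 3 Mybpc3 libraries next.

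The 24 leading genes were set beside the *P. polionotus* and hybrid animals. The *P. polionotus* libraries are in neither group mean, but they shared in the spread behind the p-values that picked these genes. The hybrid libraries had no part in the fit. In *P. polionotus* 12 of 24 had a change of the same sign (50.0%, against 45.2% of all 14247 genes), and in the hybrids 8 of the 14 that the count table holds (57.1%, against 49.9% of 9930 genes). Ptges and Coq4 are not among those 14. A further gene, LOC102926227, lacks a symbol and so is not among the 24, and was picked after its values were seen. Its unadjusted limma p was 1.24e-05, below that of Coq4 at 1.95e-05. LOC102926227 was at 15.74, 15.79 and 17.82 TPM in control and 29.57, 24.02 and 29.11 TPM in burrowing animals (0.71, limma adjusted p = 0.0883). Its *P. polionotus* animals were at 31.04 to 38.01 TPM after either trial, so the burrowing *P. maniculatus* animals lay between their own controls and the other species.

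Several of the leading genes lie close together on a chromosome. By gene order in the RefSeq table of the *P. maniculatus* assembly HU_Pman_BW_mat_3.1, 22 of the 24 could be placed, 6 of them on the chromosome of Ptges, which holds 7.57% of the placed genes. Of these, 5 fell within 60 protein-coding genes: Fibcd1 (16 genes before Ptges), Usp20 (4 before), Ptges, Ntmt1 (3 after) and Coq4 (31 after). The window of 60 genes was widened after the values were seen, and positions in bases are left out since the build behind the deposited table is not stated.

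Among the 12 genes on each side of Ptges, 16 were tested, Ptges left out. For 5 of them (31.2%) the groups did not overlap in either direction, compared with 7.21% of all genes and 8.35% of those tested on that chromosome. With median scaling the count was 6 (37.5%) against 6.28% of all genes. Usp20, which removes ubiquitin from proteins, was at 18.1, 18.0 and 20.2 TPM in control and 23.0, 23.5 and 23.5 TPM in burrowing animals (0.30, 95% interval 0.13 to 0.47). Usp20 and Ntmt1 lie on opposite sides of Ptges and went in opposite directions, Usp20 with Ptges and Ntmt1 against it. The other 3 were Exosc2, a subunit of the RNA exosome (-0.17), Tor1b, a torsin ATPase and the tested gene nearest to Ptges by gene order (-0.16), and Dolpp1, an enzyme of dolichol recycling (0.17). Their intervals reached across 0, and Tor1b overlapped with median scaling. In *P. polionotus* none of the 16 was without overlap (6.40% of all genes there).

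Within 60 genes on each side, 92 genes were tested, 12 (13.0%) had groups that did not overlap, and 6 (6.52%) had an unadjusted limma p under 0.05, compared with 2.09% of all genes. In *P. polionotus* the same 92 genes gave 3 without overlap (3.26%) and 2 at that p (2.17%, against 3.00% of all genes there). The 6 were Usp20, Ntmt1, Coq4, Fibcd1, Ntng2 and Ddx31. Fibcd1, a receptor for acetylated molecules, was at 5.74, 5.83 and 5.09 TPM in control and 6.65, 7.57 and 6.89 TPM in burrowing animals (0.29, 95% interval 0.13 to 0.46). Ntng2, a netrin-G cell adhesion protein that sits 37 genes after Ptges, was at 7.63, 6.60 and 6.48 against 8.23, 9.29 and 8.39 TPM (0.29, 95% interval 0.08 to 0.50). Ddx31, a putative RNA helicase 42 genes after Ptges, was at 2.33, 2.19 and 2.46 against 2.73, 2.97 and 3.14 TPM (0.25, 95% interval 0.09 to 0.41). Genes with groups that do not overlap thus lay on both sides of Ptges and in both directions, 7 higher and 5 lower.

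The sources used here do not give the alleles that each parental animal carried in this stretch. In the hybrids each gene of this stretch has 1 allele of each species. The *P. maniculatus* allele of Usp20 held 23.0% of the allele-assigned counts in burrowing replicate 1 and 23.9% in control replicate 1. It held 44.7% to 52.8% in the other 4 animals. For Ptges2, another prostaglandin E synthase by name, that share was 9.01% and 7.82% in burrowing replicates 2 and 3. It was 4.24% in control replicate 2 and 44.1% to 49.4% in the other 3 animals. The hybrid animals thus fell into separate levels for both genes, in each case with animals of both trials on either level. Fibcd1 and Ntmt1 had no such gap, with shares of 42.4% to 66.7% and 44.7% to 59.6%. The libraries are stranded, but whether strand was used in counting is not given, so reads of overlapping neighbours on opposite strands may not have been told apart.

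**Figure D3:**
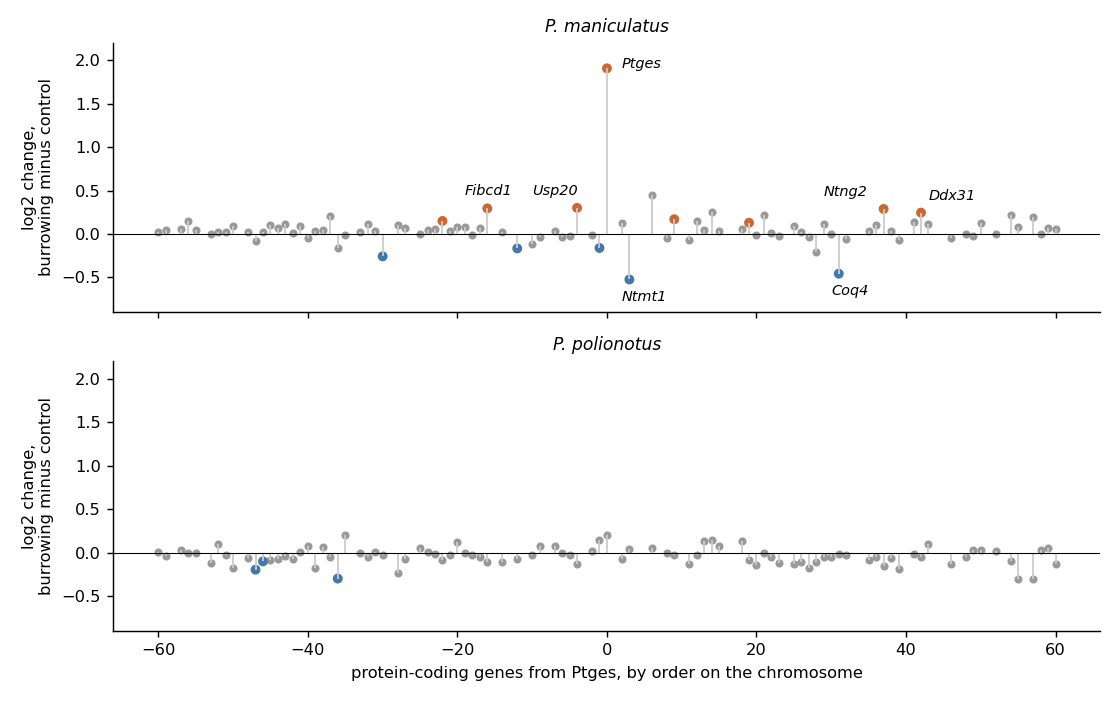
Log2 change, burrowing minus control, of the tested protein-coding genes up to 60 places on each side of Ptges by gene order, in *P. maniculatus* (top) and *P. polionotus* (bottom); coloured points are genes whose groups do not overlap. In *P. maniculatus* 12 of 92 neighbours are coloured, among them Ntmt1 at -0.52 and Coq4 at -0.46, and in *P. polionotus* 3.

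No other gene of prostaglandin synthesis and signalling passed beside Ptges. Of 21 tested Ptges was the 1 called, and the median of the list was 0.0333, beside 0.0247 for all genes; over the alternative fits it ranged from -0.007 without burrowing replicate 3 to 0.065 without burrowing replicate 2. Upstream, the inducible cyclooxygenase Ptgs2 was at 57.4, 52.1 and 41.0 TPM in control and 64.0, 41.5 and 54.8 TPM in burrowing animals (0.08, 95% interval -0.34 to 0.50), and the constitutive Ptgs1 at 2.81, 2.57 and 3.25 against 2.87, 2.59 and 2.36 TPM (-0.10, 95% interval -0.29 to 0.09). The groups overlapped for both genes. The other E synthases, Ptges2 (0.03, 95% interval -0.10 to 0.16) and the cochaperone Ptges3 (-0.01, 95% interval -0.17 to 0.15), were each at 84 to 106 TPM in every library, above Ptges on this scale per length, and their intervals leave room for less than 0.2 in either direction. Ptgds, the prostaglandin D synthase of brain and meninges, ranged from 1764 to 2802 TPM and was highest in replicate 3 of both groups (0.10, 95% interval -0.28 to 0.49).

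Among the receptors of prostaglandin E2, Ptger1 was at 29.7 to 36.7 TPM over the 6 libraries (-0.03, 95% interval -0.27 to 0.21) and Ptger4 at 0.855 to 1.38 TPM (-0.02, 95% interval -0.28 to 0.23). Ptger3 was at 1.15, 1.17 and 1.12 TPM in control and 1.30, 1.26 and 1.26 TPM in burrowing animals, without overlap, but by a small step (0.08, 95% interval -0.07 to 0.24). The phospholipase Pla2g6, noticed for the same reason after its values were seen, moved by 0.03. Ptger2 lay below the minimum, at 0.1142 to 0.9057 TPM. Of the genes fixed for naming, Angptl4, a secreted inhibitor of lipoprotein lipase, also stayed below it, at 0.4709, 0.3716 and 0.3123 TPM in control and 0.5655, 0.9035 and 2.104 TPM in burrowing animals; it was not tested.

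None of the genes that mark neuronal activity passed. Of 43 immediate early genes tested, 0 had an unadjusted limma p under 0.05 in either direction (2.09% of all genes), and the groups did not overlap for 1, Fosb (7.21% of all genes). The median of the list was 0.0816, with 33 of 43 above 0 (76.7%, against 63.6% of all genes), and it was 0.0025 without control replicate 3 and 0.1662 without control replicate 1. Fosb, a partner in the AP-1 factor whose protein builds up with repeated activity, was at 26.7, 25.2 and 17.6 TPM in control and 39.4, 27.8 and 35.0 TPM in burrowing animals (0.54, 95% interval -0.01 to 1.10). With median scaling the Fosb groups overlapped.

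Several activity genes were highest in replicate 1 of both trials. Arc, an organiser of synaptic strength, was at 747, 309 and 342 TPM in control and 663, 242 and 336 TPM in burrowing animals. Egr1, a zinc-finger transcription factor, was at 772, 424 and 371 against 724, 421 and 459 TPM. For both genes replicate 1 stood well above the other 2 animals of its group, and the trials overlapped. Fos (147, 109 and 112 against 169, 92.5 and 117 TPM) and the nuclear receptor Nr4a1 (127, 74.9 and 72.7 against 116, 62.7 and 73.0 TPM) had the same order at the top, as had Npas4, a factor induced by calcium entry (28.2, 14.7 and 22.9 against 26.6, 15.2 and 18.5 TPM). The labels do not say what a shared number stands for.

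The unpaired intervals were wide: -0.72 to 0.74 for Fos, -0.70 to 0.84 for Egr1, -1.58 to 1.21 for Arc, -0.82 to 0.60 for Npas4 and -1.01 to 0.76 for Nr4a1. Differences between animals of the same number lay within these limits for each of these genes. A single difference and the interval of a group mean are unlike measures, so this gives no gain in precision. Arc was lower in the burrowing animal of all 3 pairs, by log2 differences of -0.171, -0.351 and -0.0221. Fosb was higher in all 3, by 0.545, 0.133 and 0.95. The share of all genes with the same sign in all 3 pairs was not counted. The pairing itself was taken from correlations in these data, so a shared sign is not read as a response. Egr1 (-0.0933, -0.0101 and 0.307), Fos (0.202, -0.236 and 0.0672) and Nr4a1 (-0.123, -0.252 and 0.00644) differed in sign between pairs. So did Junb (-0.237, -0.216 and 1.23), Npas4 (-0.0835, 0.0463 and -0.293) and Bdnf (0.155, -0.265 and 0.136). With the replicate number as a block, and the spread still shared with the *P. polionotus* pairs, the intervals were -0.60 to 0.62 for Fos, -0.51 to 0.64 for Egr1, -1.41 to 1.05 for Arc and -0.87 to 0.63 for Nr4a1, and each still included 0. The interval for Fosb was -0.08 to 1.17 and included 0 as well. Junb, another AP-1 partner, had the lowest value of all in control replicate 3 (298, 230 and 85.3 against 253, 198 and 202 TPM), and its change of 0.26 was -0.28 without that library. Bdnf, a growth factor induced by activity, was at 9.30, 10.9 and 10.4 against 10.5, 8.87 and 11.5 TPM (0.01, 95% interval -0.21 to 0.23). In the hybrids Fos was at 12.2, 17.2 and 33.6 CPM in control and 44.9, 33.8 and 37.5 CPM in burrowing animals, without overlap. Hybrid control replicate 3 was just under the lowest burrowing animal. How many of all hybrid genes lacked overlap was not counted. The hybrid groups overlapped for the other 7 genes of this panel, with log2 differences of 0.75 for Fosb, 0.73 for Npas4, 0.33 for Egr1, 0.27 for Nr4a1, 0.18 for Arc, -0.02 for Junb and -0.01 for Bdnf.

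**Figure D4:**
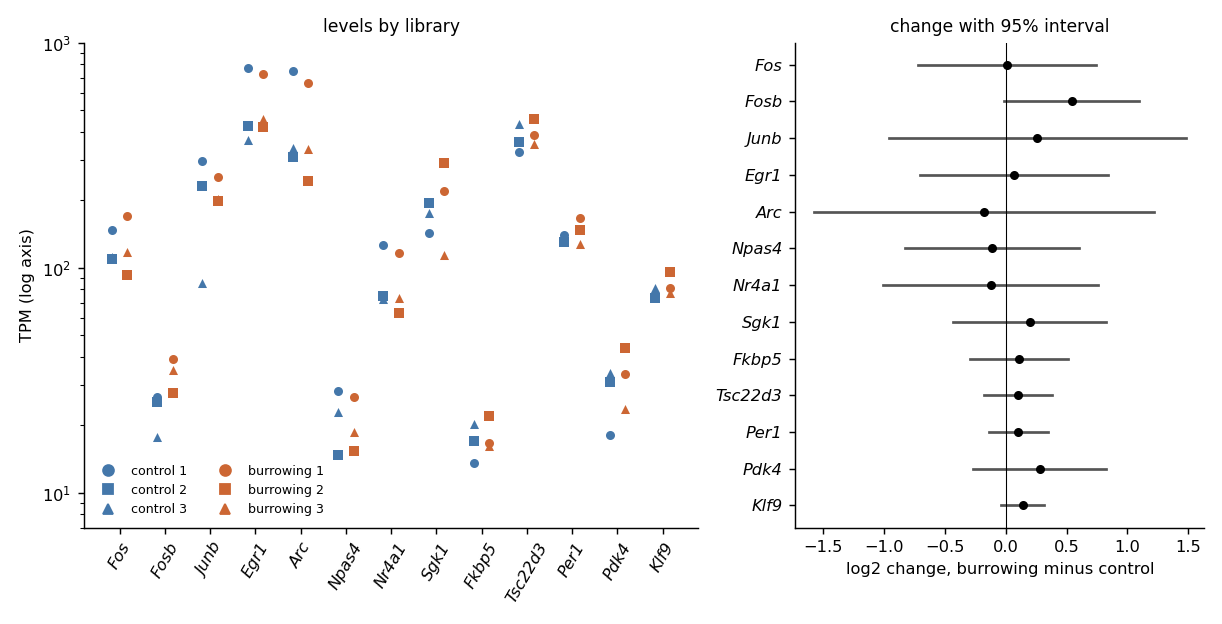
Left, TPM (log axis) of 7 activity and 6 glucocorticoid-induced genes in each library, with marker shape for the replicate number; right, their log2 change, burrowing minus control, with 95% limma intervals. Circles, replicate 1 of both trials, are highest for Arc and Egr1, and every interval includes 0.

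None of the genes induced by glucocorticoids passed either. Of 23 tested, 0 had an unadjusted limma p under 0.05 (2.09% of all genes), and 19 were above 0 (82.6%, against 63.6% of all genes). The median was 0.108, and it was 0.0479 without burrowing replicate 2 and 0.1809 without control replicate 3. Sgk1, a kinase that controls ion transport, was at 142, 194 and 175 TPM in control and 218, 292 and 114 TPM in burrowing animals (0.20, 95% interval -0.43 to 0.82). Pdk4, which turns cells from glucose to fat as fuel, was at 18.1, 31.0 and 33.9 against 33.8, 43.8 and 23.4 TPM (0.28, 95% interval -0.27 to 0.82). For both genes burrowing replicate 2 was the highest of the 6 animals and burrowing replicate 3 lay within or below the control range. In *P. polionotus* Pdk4 was at 31.7 to 42.6 TPM in control and 66.1 to 82.3 TPM in burrowing animals (0.99, SE 0.247), without overlap; the difference between the responses, 0.72 (SE 0.349), did not pass over all genes. Fkbp5, a cochaperone of the receptor (0.11), Tsc22d3, an anti-inflammatory target (0.10), the clock gene Per1 (0.10) and the transcription factor Klf9 (0.14) had intervals that included 0.

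Cell type markers describe how alike the dissections were. Of 22 tested markers of oligodendrocytes and myelin, the sheath of axons, 2 were above 0 (9.09%, against 63.6% of all genes), and none had an unadjusted limma p under 0.05 (2.09% of all genes). Their median was -0.104, and it was -0.0628 without control replicate 3 and -0.1783 without control replicate 2. Their summed level was 3378 to 4315 TPM in control and 3354 to 3628 TPM in burrowing animals, with control replicates 1 and 3 highest. Markers of cortical and hippocampal excitatory neurons were above 0 for 18 of 20 (90.0%), with a median of 0.129 that was 0.0381 without control replicate 3, and markers of cerebellar granule and Purkinje cells for 1 of 19 (5.26%), with a median of -0.102 that was 0.0201 without it. Over the alternative fits these medians ranged from 0.0104 to 0.1815 and from -0.2427, without burrowing replicate 3, to 0.061. Control replicate 3 had the least of the cortical glutamate transporter Slc17a7, at 545.4 TPM against 688.8 to 730.4 in the other libraries, and the most summed cerebellar markers, at 2857 TPM against 1944 to 2598. Slc17a7 is itself a member of the excitatory neuron list, and the summed markers are those of the cerebellar list. A link of these levels to the 2 medians is therefore built in. Their part in the other results was not tested. Summed microglial markers were 281.8 to 375.9 TPM in control and 290.2 to 361.9 in burrowing animals, with Cx3cr1, their fractalkine receptor, at 7.036, 7.443 and 17.27 against 15.08, 7.133 and 18.26 TPM.

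Lists of receptors and adhesion molecules of neurons had medians above that of all genes, with none of their genes past the adjustment. Of 22 glutamate receptor genes 19 were above 0 (86.4%, against 63.6% of all genes), and 3 were higher without overlap (5.84% of all genes), or 2 with median scaling. Their median was 0.075, and it was 0.0282 without burrowing replicate 2. Grik3, a kainate receptor subunit, was at 14.2, 14.6 and 12.9 TPM in control and 14.9, 15.3 and 16.5 TPM in burrowing animals (0.15, 95% interval 0.02 to 0.28) and overlapped with median scaling. GABA and glycine receptors were above 0 for 15 of 18 (83.3%, median 0.0505) and the AMPK-related kinases and their regulators, which include Nuak2, for 17 of 19 (89.5%, median 0.0548), with medians over the alternative fits of 0.0227 to 0.0661 and 0.0248 to 0.0797. Of 6 clustered protocadherins tested, 5 were above 0, with a median of 0.144 that was 0.257 without control replicate 1 and 0.0853 without control replicate 3 and burrowing replicate 2, and 2 had an unadjusted limma p under 0.05 (2.09% of all genes): Pcdhb2, and Pcdhgb7, picked after its values were seen, at 23.3, 18.7 and 21.1 against 25.1, 23.98 and 27.3 TPM (0.27). Members of this cluster are close copies of each other, so reads may have been split between them. With quantile normalization the median of the glutamate receptors was 0.0469 and that of the protocadherins 0.121, with all genes at -0.0015.

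Lists of metabolic and protein-making genes had medians on either side of that of all genes. Coq4 was the 1 gene of 10 in coenzyme Q synthesis with an unadjusted limma p under 0.05 (2.09% of all genes), and the median of those 10 was -0.0131. The 46 genes of the nuclear-encoded respiratory chain had a median of -0.0271, with 15 above 0 (32.6%, against 63.6% of all genes), which lay -0.0518 from the median of all genes. Without overlap 3 of the 46 were lower and 1 higher, and of 74 cytosolic ribosomal proteins (median -0.0099) 5 were lower and 0 higher, where 1.37% of all genes were lower and 5.84% higher. With median scaling, which gave 505 genes lower and 389 higher over all genes, these counts were 4 and 1 for the respiratory chain and 4 and 0 for the ribosomal proteins. Among 27 genes of lipid use and fasting the median was 0.0264, and Pnpla2, the first lipase of stored fat, was at 55.0, 51.1 and 50.1 against 52.8, 84.0 and 67.0 TPM (0.35, 95% interval 0.07 to 0.64), with overlap through burrowing replicate 1. Hypoxia genes (24 tested, median 0.0122), the unfolded protein response (18, 0.0344) and sterol synthesis (21, 0.00493) held no gene at that p. With 2.09% of all genes at that p, lists of this size can hold none without differing from the rest. Over the alternative fits the medians ranged from -0.0583 to -0.002 for the respiratory chain, -0.0414 to 0.0112 for ribosomal proteins, -0.0636 to 0.0054 for coenzyme Q, -0.0328 to 0.0588 for lipid use, -0.0191 to 0.0557 for hypoxia, -0.0232 to 0.0816 for the unfolded protein response and -0.0462 to 0.0715 for sterol synthesis. Among 22 heat shock proteins and chaperones the cochaperone Bag3 was at 12.5, 11.7 and 12.2 against 12.6, 15.1 and 13.8 TPM (0.17, 95% interval 0.01 to 0.33). These groups were apart by a small step and overlapped with median scaling. In *P. polionotus* Bag3 was higher without overlap as deposited (0.18, SE 0.0723).

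Single members of other lists reached the unadjusted p, as did 2.09% of all genes. Gal, the peptide galanin, was at 3.27, 4.44 and 3.91 TPM in control and 3.04, 3.16 and 3.00 TPM in burrowing animals (-0.25). Cdhr1, a cadherin found in retina and olfactory bulb, was at 13.3, 20.1 and 17.2 against 23.0, 22.2 and 23.6 TPM (0.44, 95% interval 0.13 to 0.75). Aanat, an enzyme of melatonin synthesis in the pineal gland, was at 4.47, 4.13 and 4.15 against 5.19, 7.09 and 4.99 TPM (0.35). Of 8 olfactory bulb markers tested 6 were above 0 (median 0.0999, range over the alternative fits 0.0609 to 0.1566), and all 3 tested markers of pituitary and pineal gland were; the part of the dissection in these values was not tested. The inflammation list had 2 genes higher at that p of 16 tested (1.47% of all genes), with a median of -0.0194 that ranged from -0.0814 to 0.0552 over the alternative fits: Nfkb2, a subunit of NF-kappa-B (0.25), and, picked after its values were seen, Socs3, a brake on cytokine signalling, at 8.17, 9.32 and 8.67 against 10.9, 11.3 and 11.3 TPM (0.33, 95% interval 0.02 to 0.64). The interferon-stimulated Ifit2 was at 14.0, 14.3 and 11.8 against 15.2, 16.3 and 17.1 TPM (0.26, 95% interval 0.06 to 0.46), while the 11 genes of its list had a median of -0.0258, with a range of -0.1205 to 0.0836.

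**Figure D5:**
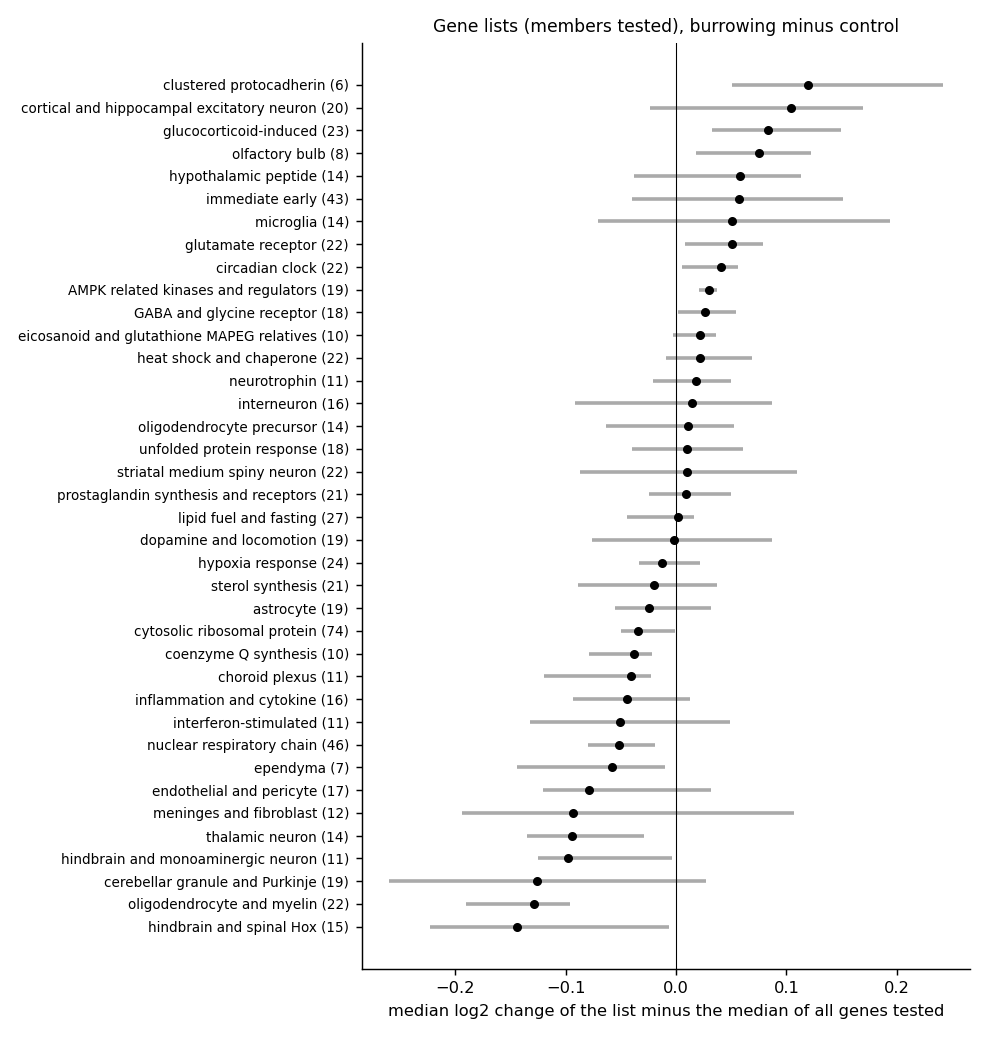
Median log2 change of each gene list (number of members tested in brackets) minus the median of all genes tested, burrowing minus control; grey bars span the values over all alternative settings, leave-one-out included. Points lie between the myelin and hindbrain lists on the left and the clustered protocadherins on the right, and most bars reach 0 or come close to it.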

How the data were processed

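TPM of 12 parental libraries were deposited by the authors, and allele-resolved counts of 6 F1 hybrids, which the authors deposited as whole numbers per gene and parental allele. Reads were aligned with STAR 2.4.2a, per the submitters' processing notes; the sources used here give no build, no annotation and no account of the TPM computation. Table columns headed BW were taken as *P. maniculatus* and PO as *P. polionotus*, from the order of these codes in the hybrid labels. The row that names no gene (0.789% to 2.48% of TPM) was left out, and 27 rows whose names spreadsheet software had turned into dates were not named. Hybrid counts, 11414801 to 53905270 a library, were summed over alleles and given as CPM, scaled by these totals, without a test.

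Log2(TPM + 1) was fitted with limma 3.58.1 in R 4.3.3, with a mean trend, 1 mean for each of 4 groups and 8 residual degrees of freedom; tests were two-sided and p-values adjusted by Benjamini-Hochberg over 14247 genes, called below 0.05. Nothing says more of the replicates than that animals were individual, so p-values measure the spread between these libraries, which at most shared 0.0211% of identical values. On simulated data with 100 genes changed by 0.5 and 100 by 1 log2, 72% and 92% were recovered, with 5 false calls. The changed genes were drawn from those with a mean of at least 5 TPM, and the simulated noise was normal and independent between libraries. These shares therefore do not hold for genes of 1 to 5 TPM or for spread that libraries share. The replicate numbers of the labels were taken to pair the libraries, since deviations from the group means correlated at 0.2601, 0.126 and 0.1007 for equal numbers and at -0.1626 to 0.03538 otherwise; the main fit has no block. Named genes were those called, the 12 of smallest p per direction with a symbol and no overlap, a fixed panel, and the member of smallest p of each list where under 0.05. Members and lists were chosen with earlier results of these data known. Lists are described, not tested. A planned count of promoter motifs was not run.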

Additional observations from a re-analysis of the deposited data

Results flagged for a closer look

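Among the named genes, 2 were separated by the trial in both species in opposite directions. Only named genes were searched, and the share over all genes was not counted. Groups did not overlap in either direction for 7.21% of all genes in *P. maniculatus* and 6.40% in *P. polionotus*. Spata4 was lower after burrowing in *P. maniculatus* (1.58, 2.65 and 1.90 TPM in control against 0.903, 1.54 and 1.43) and higher in *P. polionotus* (1.46 to 1.65 against 1.70 to 2.02 TPM). The response in *P. polionotus* minus that in *P. maniculatus* was 0.54 (SE 0.194). Ifit2 was higher in *P. maniculatus* and lower in *P. polionotus* (11.8 to 13.5 TPM in control against 9.49 to 11.1), a difference of -0.49 (SE 0.126). Neither difference passed the adjustment over all genes (adjusted p = 0.993 for both), and these 2 genes were noticed because of the directions.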

How the results depend on the processing

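Ptges kept its direction in every alternative fit and passed in all but 2, a pseudocount of 0.1 and the 6 libraries alone, which each called 0 genes (284 and 271 at an unadjusted limma p under 0.05). Rescaling without Mtrnr2l6 called 3 genes. Leaving out 1 library called 1 to 6 genes: 4 without burrowing replicate 2, 6 without control replicate 1 and 3 without control replicate 2. Leaving out control replicate 3 and burrowing replicate 2 together, an alternative chosen after seeing the data, called 6. The difference between the species called 0 genes (411 at an unadjusted limma p under 0.05), 1 with a pseudocount of 5 (Ptges) and 0 to 2 when 1 library was left out: 2 without maniculatus control replicate 1 and 1 without control replicate 3. The cause of these changes was not tested. With the replicate block limma called 1 gene, Ptges (adjusted p = 0.0413), and 0 for the difference between species, so the pairing changed no call. Without a filter on the mean 523 genes had an unadjusted limma p under 0.05, and with a minimum of 5 TPM 183. Of the genes followed across settings, 52 kept their direction and 15, none of them called, changed sign in some setting. Fos fell to -0.024 with quantile normalization and -0.0203 with median scaling, and Bdnf to -0.0184 and -0.0197, and to -0.0005 without Mtrnr2l6. With both libraries left out, Ptges2 was at -0.0365, Ptges3 at 0.071, Ptger4 at 0.0149, Junb at -0.2128, Npas4 at 0.1137 and Sgk1 at -0.0743. With 1 library left out, log2 changes ranged from -0.0022 to 0.0648 for Ptges2, -0.0401 to 0.0376 for Ptges3, -0.0597 to 0.2476 for Ptgs2, -0.1014 to 0.2281 for Ptgds, -0.0977 to 0.0505 for Ptger1, -0.1044 to 0.0743 for Ptger4, -0.2217 to 0.2112 for Fos, -0.2757 to 0.6212 for Junb, -0.1711 to 0.3876 for Egr1, -0.5858 to 0.2182 for Arc, -0.3596 to 0.0876 for Npas4, -0.3798 to 0.1338 for Nr4a1, -0.0681 to 0.1017 for Bdnf, -0.0982 to 0.575 for Sgk1 and -0.0308 to 0.2356 for Fkbp5. Depth behind the TPM is unknown, and 3 animals a group limit what could be detected.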
